A study of Mus musculus with 4 samples.

Results

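The genes described here encode 10 cell-surface proteins by which group 2 innate lymphoid cells (ILC2s) are commonly recognised in flow cytometry. They were chosen by name, as the rows Klrg1, Ly6a, Kit, Ptprc, Cd44, Cd69, Cd200r1, Thy1, Selplg and Cd7 among the 22083 genes of the deposited table, and all 10 had a row. The choice was made with earlier results of these data known. The sources used here do not name the antibodies of the sort, so the list does not stand for the gate of this experiment. How widely each protein is used to recognise ILC2s was not examined. The series compares ILC2s of the small intestinal lamina propria (SI-ILC2s, 2 libraries) with ILC2s from mesenteric white adipose tissue (WAT-ILC2s, 2 libraries). All cells came from wild-type (WT) C57BL/6 mice aged 9 weeks, with no treatment named, and ILC2s were purified on a cell sorter before total RNA was sequenced. Whether a tissue's libraries came from separate or pooled mice is not stated, so a p-value here reflects how far these libraries vary, a spread that may be technical only.

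ILC2s settle in tissues early in life, carry no antigen receptor of the T or B cell kind, and release type 2 cytokines when epithelial and stromal alarmins reach them. Because no single surface protein marks them, they are sorted as CD45-positive cells that lack the proteins of other lineages and carry a combination of markers. Ptprc encodes CD45, a receptor tyrosine phosphatase of all nucleated blood cells, and Kit encodes the receptor tyrosine kinase for stem cell factor. Klrg1, Cd200r1 and Cd69 encode receptors of inhibition, activation and residency, of which KLRG1 and CD69 are C-type lectins. Cd44 and Selplg encode adhesion proteins, the hyaluronan receptor and the selectin ligand PSGL-1. Thy1 and Ly6a encode the small proteins CD90 and Sca-1, held in the membrane by a glycosylphosphatidylinositol (GPI) anchor, and Cd7 encodes an immunoglobulin-family receptor of T and NK cells.

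Values are RPKM, reads scaled to gene length and to library depth, as the authors deposited them, so levels of different genes can be compared per length. The steps between low values of single-exon genes put the depth at 55300000 to 76700000 reads per library. Column sums were 158718 and 151345 RPKM in SI-ILC2s, against 141803 and 136705 RPKM in WAT-ILC2s. ILC2 transcripts were abundant in every library. A list of 10 ILC2 genes summed to 1010 and 1061 RPKM in SI-ILC2s, against 940.2 and 932 RPKM in WAT-ILC2s. Of these 10, 3 were called higher in SI-ILC2s and 2 lower, beside 17.9% and 29.6% of all tested genes. Gata3, the transcription factor gene that defines the lineage, had 354 and 377 RPKM in SI-ILC2s and 338 and 397 RPKM in WAT-ILC2s (limma adjusted p = 0.99). Areg, the amphiregulin gene, had 229 and 191 RPKM in SI-ILC2s and 255 and 185 RPKM in WAT-ILC2s (limma adjusted p = 0.85). Differences between tissues are SI-ILC2 minus WAT-ILC2 values of log2(RPKM + 1), a scale that makes changes of scarce genes look smaller than they are.

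The markers covered a wide range of levels, and their order differed between the tissues. In SI-ILC2s the order by mean RPKM was Cd69 at 155 ± 4.98 (SD, n = 2), Klrg1 at 119 ± 17.7, Cd44 at 77.4 ± 7.94, Selplg at 41.9 ± 0.656, Kit at 32.7 ± 1.70, Ptprc at 19.1 ± 2.28, Cd200r1 at 15.8 ± 1.76, Ly6a at 11.2 ± 1.98, Thy1 at 3.79 ± 1.83 and Cd7 at 1.16 ± 0.0783. Each gene lay above the next in both SI-ILC2 libraries. In WAT-ILC2s the order was Klrg1 at 154 ± 31.5 (SD, n = 2), Selplg at 81.95 ± 2.76, Cd69 at 52.99 ± 2.40, Cd44 at 49.3 ± 4.77, Ly6a at 33.3 ± 13.2, Ptprc at 27.6 ± 3.51, Thy1 at 22.9 ± 6.36, Kit at 20.98 ± 0.704, Cd200r1 at 18.4 ± 2.40 and Cd7 at 0.236 ± 0.108. There the neighbours Cd69 and Cd44, Ly6a and Ptprc, Ptprc and Thy1, and Thy1 and Kit were not separated by both libraries. Leaving Cd7 and the SI-ILC2 values of Thy1 aside, the markers stood at the 91.2nd percentile or above of all genes in their library. Thy1 stood at the 77.2nd and 84.8th percentile in SI-ILC2s.

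**Figure D1:**
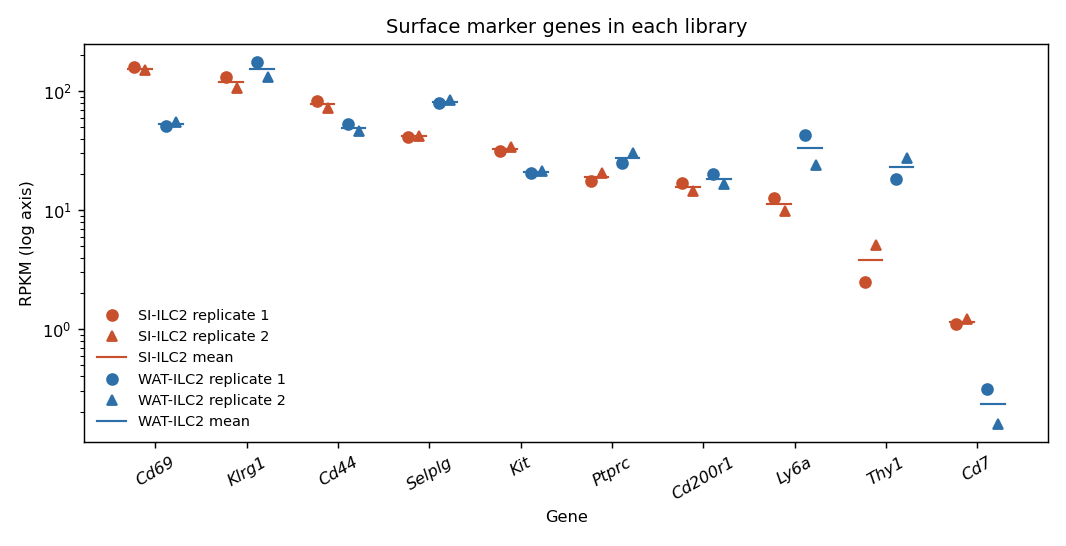
RPKM (log axis) of the 10 surface marker genes in each library, with circles for replicate 1, triangles for replicate 2 and a line for the mean of 2, SI-ILC2s in red at the left and WAT-ILC2s in blue at the right of each gene. Cd69 leads in SI-ILC2s at 158 and 151 RPKM, and Thy1 shows the widest gap toward WAT-ILC2s among genes above 1 RPKM in every library.

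Of the 10 markers, 4 were higher in SI-ILC2s (Cd69, Cd7, Cd44 and Kit), 4 were lower (Thy1, Ly6a, Selplg and Ptprc), and Klrg1 and Cd200r1 did not pass the test (limma on log2(RPKM + 1), Benjamini-Hochberg adjusted p below 0.05 over 8230 genes). Of all 8230 genes tested, 47.5% were called in either direction, 17.9% toward SI-ILC2s and 29.6% toward WAT-ILC2s, and the 8 calls in 10 are to be read against that share. Cd7 entered the test through its SI-ILC2 libraries alone, so its call was in part set by the filter. With a mean of at least 5 RPKM, which leaves Cd7 out, 7 markers were called, 3 higher in SI-ILC2s and 4 lower. The numbers of genes called toward SI-ILC2s and toward WAT-ILC2s were 1470 and 2436, and they became 1909 and 1868 after median-of-ratios scaling, and 1125 and 2891 with libraries rescaled to equal sums. The median difference was -0.29 over the markers, beside -0.15 over all tested genes, and the median size without sign was 0.72 beside 0.46. The shift of all genes was -0.01 after median-of-ratios scaling and -0.26 after rescaling to equal sums. All 10 markers kept their direction under each of these scalings and under quantile normalization. The libraries of the tissues did not overlap for 9 of 10 markers, against 75.7% of all tested genes. In bulk RNA, fewer cells carrying a transcript and less of it per cell cannot be told apart, and tissue digestion and sorting cannot be separated from the tissue itself. For any 1 gene the smallest p that an exact permutation test can give here is 0.333, so the calls rest on the spread that limma shares across genes.

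**Figure D2:**
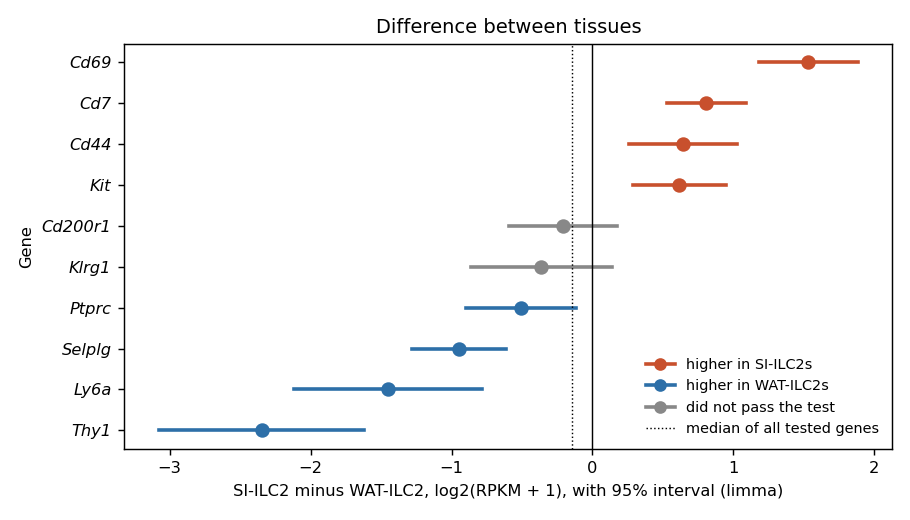
Difference of each marker gene between tissues (SI-ILC2 minus WAT-ILC2, log2(RPKM + 1)) with its 95% interval from limma; genes higher in SI-ILC2s are red, genes higher in WAT-ILC2s are blue and genes that did not pass the test are grey. The points run from 1.53 for Cd69 to -2.35 for Thy1, and the dotted line marks the median of all tested genes at -0.15.

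Cd69 (chromosome 6, 129267325 to 129275436, minus strand) encodes an early activation antigen that also marks tissue residency, since it pulls the egress receptor S1PR1 off the surface. It had 158 and 151 RPKM in SI-ILC2s, against 51.3 and 54.7 RPKM in WAT-ILC2s. Both intestinal libraries were far above both adipose libraries, with little spread within a tissue. The mean was 2.92 times that of WAT-ILC2s, and the difference was 1.53 on the log2 scale (SE 0.15, limma adjusted p = 7.4e-04). Cd69 kept its call under all 13 alternatives.

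Cd44 (chromosome 2, 102811141 to 102901665, minus strand), the receptor for hyaluronan and a marker of antigen-experienced and tissue lymphocytes, had 83.05 and 71.8 RPKM in SI-ILC2s and 52.6 and 45.9 RPKM in WAT-ILC2s. Kit (chromosome 5, 75574916 to 75656722, plus strand), known on mast cells, on progenitors and on part of the ILCs, had 31.5 and 33.9 RPKM in SI-ILC2s and 20.5 and 21.5 RPKM in WAT-ILC2s. Neither gene overlapped between the tissues, and the sizes were close to each other. The mean of Cd44 was 1.57 times and that of Kit 1.56 times the mean in WAT-ILC2s, with log2 differences of 0.64 (SE 0.16) and 0.62 (SE 0.14) and limma adjusted p-values of 0.018 and 0.012. Leaving out a SI-ILC2 library ended both calls. The adjusted p of Cd44 was 0.16 without SI-ILC2 replicate 1 and 0.059 without replicate 2, in a range of 5.8e-08 to 0.16 over its alternatives, and that of Kit was 0.065 and 0.094, in a range of 1.5e-07 to 0.094 (limma).

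The stretches around the start sites of Kit, Cd44 and Ptprc are shown, the markers for which a promoter was held. RefSeq promoters (GRCm38.p6, 250 bases before to 50 bases after the start, 300 bases, 5′ to 3′ on the gene's strand, the most upstream start where several are listed) were held for 3 of the 10 genes. They lie at chr5:75574737-75575036 (Kit, plus strand), chr2:102901616-102901915 (Cd44, minus strand) and chr1:138175256-138175555 (Ptprc, minus strand). Both strands were searched for 7 motifs. The GATA motif was spelled AGATAA or TGATAA. The RUNX motif was spelled TGTGGT and the ETS motif CCGGAA. The AP-1 motif was spelled TGANTCA and the ROR half-site AGGTCA. The GC box of SP and KLF factors was spelled GGGCGG and the TATA box TATAAA. Capitals mark the matches, which did not overlap each other.
Kit: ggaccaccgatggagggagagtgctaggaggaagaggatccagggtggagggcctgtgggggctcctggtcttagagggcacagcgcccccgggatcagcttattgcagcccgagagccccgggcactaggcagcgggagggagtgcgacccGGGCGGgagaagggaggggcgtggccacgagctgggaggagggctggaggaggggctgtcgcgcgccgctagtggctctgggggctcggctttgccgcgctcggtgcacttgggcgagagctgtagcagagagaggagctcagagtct
Cd44: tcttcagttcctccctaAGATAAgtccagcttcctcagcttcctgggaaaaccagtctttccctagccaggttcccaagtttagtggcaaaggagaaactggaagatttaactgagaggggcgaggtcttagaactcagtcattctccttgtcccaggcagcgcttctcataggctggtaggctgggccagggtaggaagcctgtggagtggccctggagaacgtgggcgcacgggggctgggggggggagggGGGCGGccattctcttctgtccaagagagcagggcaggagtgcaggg
Ptprc: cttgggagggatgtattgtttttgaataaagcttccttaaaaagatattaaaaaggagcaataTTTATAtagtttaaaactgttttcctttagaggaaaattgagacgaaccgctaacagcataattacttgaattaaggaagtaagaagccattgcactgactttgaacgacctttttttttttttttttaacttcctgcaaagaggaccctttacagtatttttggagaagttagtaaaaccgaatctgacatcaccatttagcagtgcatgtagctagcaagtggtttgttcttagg
Kit and Cd44 each held 1 GC box, a word found in 35.7% of the 32851 promoters in the table, and Cd44 also held 1 GATA word, found in 18.6%. Ptprc held 1 TATA word on the reverse strand (13.6% of all promoters) and no other match. The RUNX, ETS, AP-1 and ROR motifs, found in 16.8%, 14.9%, 7.81% and 16.3% of all promoters, had no match in the 3 windows. GC content was 69.0% for Kit, 58.0% for Cd44 and 33.7% for Ptprc, beside a median of 52.7%. These matches describe the letters of the windows only, and no binding was measured.

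Cd7 (chromosome 11, 121036747 to 121039418, minus strand) was the scarcest marker. It had 1.10 and 1.21 RPKM in SI-ILC2s, against 0.312 and 0.159 RPKM in WAT-ILC2s, which corresponds to about 96 and 83 reads against about 20 and 12. It passed the filter through its SI-ILC2 libraries alone, while the other 9 markers reached 1 RPKM in all 4 libraries. The log2 difference was 0.81 (SE 0.12, limma adjusted p = 0.0027) and depended on the pseudocount, at 1.94 with a pseudocount of 0.1 and 0.23 with 5, with adjusted p-values from 2.2e-07 to 0.010 over 12 alternatives. An annotated antisense gene, Gm11775, overlaps 122 bases of its exons. Without a stated strand setting, reads of the pair cannot be told apart.

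Thy1 (chromosome 9, 44043384 to 44048579, plus strand), the gene of CD90, which is shared by T cells, ILCs, fibroblasts and neurons, showed the largest difference of the 10. It had 2.49 and 5.08 RPKM in SI-ILC2s, against 18.4 and 27.4 RPKM in WAT-ILC2s. The libraries were apart by more than their spread, although the values within SI-ILC2s differed widely. The mean in WAT-ILC2s was 6.04 times that in SI-ILC2s, a log2 difference of -2.35 (SE 0.30, limma adjusted p = 0.0019), and the call held under all 13 alternatives.

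Ly6a (chromosome 15, 74994877 to 74998031, minus strand), the gene of the stem cell antigen Sca-1, had 12.6 and 9.78 RPKM in SI-ILC2s, against 42.7 and 24.0 RPKM in WAT-ILC2s. The groups did not overlap, with a wide spread in the adipose libraries. Its log2 difference was -1.45 (SE 0.28, limma adjusted p = 0.0072) and its call held under all 13 alternatives. Of the words of 50 bases in its transcripts, 19.0% also occur in transcripts of other genes, mostly Ly6c1, so its value is uncertain where reads were split between copies. Ly6c1 itself was much lower, at 0.696 and 0.884 RPKM in SI-ILC2s, against 3.53 and 2.27 RPKM in WAT-ILC2s. For the other markers the shared words came to between 0% and 6.92%, the highest being that of Cd7 with Gm11775.

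Selplg (chromosome 5, 113818536 to 113832644, minus strand), which encodes the ligand that lets leukocytes roll on selectins, had 41.5 and 42.4 RPKM in SI-ILC2s, against 79.99 and 83.9 RPKM in WAT-ILC2s. Replicates were almost equal within each tissue. The mean in WAT-ILC2s was 1.95 times that in SI-ILC2s, a log2 difference of -0.95 (SE 0.14, limma adjusted p = 0.0028), and the call held under all 13 alternatives.

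Ptprc (chromosome 1, 138062861 to 138175708, minus strand) had 17.5 and 20.7 RPKM in SI-ILC2s, against 25.2 and 30.1 RPKM in WAT-ILC2s. The groups did not overlap, and CD45 transcripts were the more abundant in adipose libraries. The log2 difference was -0.51 (SE 0.16, limma adjusted p = 0.041). This call ended under 5 of 13 alternatives, with an adjusted p of 0.11 after median-of-ratios scaling, 0.085 with no filter on low values, and 0.26, 0.081 and 0.14 without SI-ILC2 replicate 1, SI-ILC2 replicate 2 and WAT-ILC2 replicate 2, in a range of 6.4e-06 to 0.26. A gene-level value does not show which CD45 isoform was made.

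Klrg1 (chromosome 6, 122270596 to 122282882, minus strand), the gene of an inhibitory lectin receptor for cadherins that is high on mature ILC2s, had 131 and 106 RPKM in SI-ILC2s, against 176 and 131 RPKM in WAT-ILC2s. The groups were adjacent, with the higher intestinal value just below the lower adipose value. The log2 difference was -0.36 (95% interval -0.86 to 0.14, limma adjusted p = 0.19). Without WAT-ILC2 replicate 2 it was -0.57 with an adjusted p of 0.031, in a range of 0.0013 to 0.64 over its alternatives. Cd200r1 (chromosome 16, 44765736 to 44794978, plus strand), an inhibitory receptor for CD200, had 16.99 and 14.5 RPKM in SI-ILC2s, against 20.1 and 16.7 RPKM in WAT-ILC2s. It was the only marker whose groups overlapped, with a log2 difference of -0.21 (95% interval -0.59 to 0.18, limma adjusted p = 0.31). The intervals of this unpaired fit include 0 for both genes, which does not show either to be equal in the tissues.

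Ratios between markers of the same library do not depend on a scaling factor applied to the whole library. Quantile normalization is not such a factor and can change them. Cd69 was above Klrg1 in SI-ILC2s, with ratios of 1.21 and 1.43, and below it in WAT-ILC2s, with ratios of 0.292 and 0.416. Cd44 was above Selplg in SI-ILC2s, with ratios of 2.00 and 1.69, and below it in WAT-ILC2s, with ratios of 0.658 and 0.547. Kit per Klrg1 was 0.240 and 0.320 in SI-ILC2s, against 0.117 and 0.164 in WAT-ILC2s. Kit per Thy1 was 12.7 and 6.69 in SI-ILC2s, against 1.11 and 0.785 in WAT-ILC2s. These ratios show unequal change, not which gene of a pair changed. Divided by the Ptprc value of the same library, Kit had ratios of 1.80 and 1.64 in SI-ILC2s against 0.814 and 0.713 in WAT-ILC2s. Klrg1 overlapped, at 7.50 and 5.12 against 6.99 and 4.36. Such ratios carry the difference of Ptprc itself and do not stand for a gate on CD45. Thy1 per Ptprc was 0.142 and 0.245 in SI-ILC2s, against 0.731 and 0.909 in WAT-ILC2s.

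**Figure D3:**
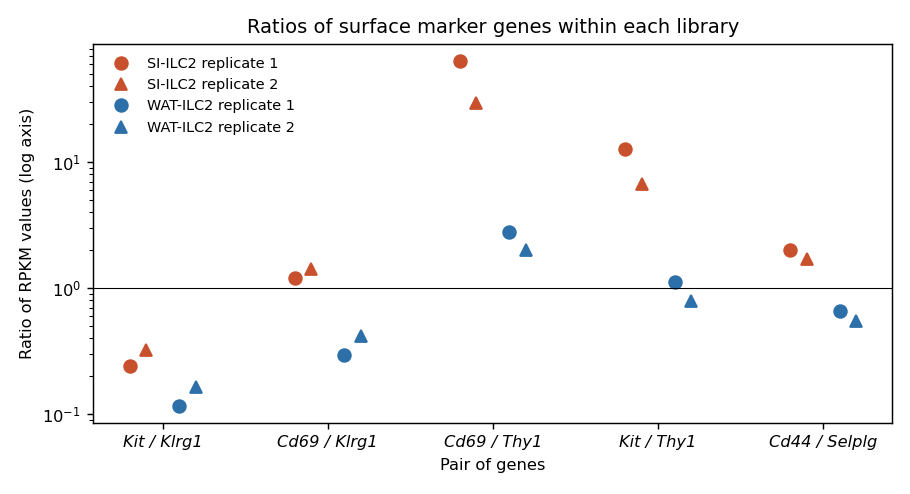
Ratios of RPKM values of pairs of marker genes within each library (log axis), SI-ILC2s in red at the left and WAT-ILC2s in blue at the right of each pair, circles for replicate 1 and triangles for replicate 2; the line marks equal levels. The ratio of Cd69 to Thy1 was 63.5 and 29.8 in SI-ILC2s, against 2.79 and 2.00 in WAT-ILC2s.

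For each marker the genes with the nearest profile over the 4 libraries were taken from 7842 named tested genes, by Euclidean distance of mean-centred log2(RPKM + 1) values. With so many genes and 4 libraries a near profile is easily found, so these are descriptions. Nearest to Cd69 was Gp49a, a gene of the gp49 immunoglobulin-like receptors, at 380.4 and 357 RPKM in SI-ILC2s, against 125 and 132 RPKM in WAT-ILC2s (distance 0.029). Nearest to Thy1 was Esyt1, which encodes a lipid transfer protein of membrane contact sites, at 11.4 and 19.6 RPKM in SI-ILC2s, against 70.5 and 109 RPKM in WAT-ILC2s (distance 0.14). Nearest to Ly6a was Ptprcap, which encodes a protein bound to CD45, at a distance of 0.19. The nearest genes to Kit, Ptprc, Cd44 and Selplg were Tdg, Csnk1g2, Wdr74 and Vars, at distances between 0.015 and 0.028.

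A sort for ILC2s usually discards cells with surface proteins of other lineages. Of 22 genes of such proteins, 19 stayed below 1 RPKM in every library, among them Cd4, Cd8a, Ms4a1, Itgam, Itgax, Klrb1c and Ncr1. The exceptions were genes of the T cell receptor complex and Ly6c1. Cd3g had 7.07 and 4.94 RPKM in SI-ILC2s, against 21.2 and 10.8 RPKM in WAT-ILC2s (log2 difference -1.22, limma adjusted p = 0.020, and 0.057 without SI-ILC2 replicate 2, in a range of 6.9e-13 to 0.057 over its alternatives). Cd3e had 1.19 and 1.48 RPKM in SI-ILC2s and 1.81 and 1.39 RPKM in WAT-ILC2s (limma adjusted p = 0.43), and Cd3d reached at most 0.127 RPKM. Ly6c1 was lower in SI-ILC2s (log2 difference -1.10, limma adjusted p = 0.0046), but it passed the filter through WAT-ILC2s only. Among 9 tested genes of other proteins used to gate ILC2s, 5 were higher in SI-ILC2s and 2 lower, with a median of 0.83. Over all tested genes, 17.9% were called toward SI-ILC2s and 29.6% toward WAT-ILC2s, with a median of -0.15. Of these 9 genes Tigit alone passed the filter through its SI-ILC2 libraries only. The coinhibitory receptor gene Tigit had 2.10 and 2.50 RPKM in SI-ILC2s and 0.168 and 0.190 RPKM in WAT-ILC2s, and Pdcd1, the gene of PD-1, had 47.2 and 37.2 RPKM in SI-ILC2s and 21.8 and 17.6 RPKM in WAT-ILC2s. The alarmin receptor genes of the list went apart, with log2 differences of 3.54 for Il17rb and -2.05 for Il1rl1. Il2ra, the gene of CD25, had a log2 difference of 0.07 (limma adjusted p = 0.70).

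CD45 keeps Src-family kinases ready by removing their inhibitory phosphate, which the kinase CSK adds. Of 13 tested genes around this switch, 2 were higher in SI-ILC2s and 9 were lower, with a median of -0.75. This count and those of the lists that follow stand beside 17.9% of all tested genes called toward SI-ILC2s, 29.6% toward WAT-ILC2s and a median of -0.15, and nothing particular to a list is read from them. Ptprcap had 7.02 and 5.80 RPKM in SI-ILC2s and 25.1 and 16.4 RPKM in WAT-ILC2s, and Ptpn7, a phosphatase gene, had 2.43 and 2.01 RPKM in SI-ILC2s and 9.42 and 8.58 RPKM in WAT-ILC2s. The kinase gene Yes1 had 1.11 and 1.13 RPKM in SI-ILC2s and 5.10 and 5.63 RPKM in WAT-ILC2s, and Lat, the adaptor gene, had 28.5 and 23.9 RPKM in SI-ILC2s and 54.7 and 44.2 RPKM in WAT-ILC2s. In the other direction, Ptpn22, a phosphatase gene that restrains the same kinases, had 50.5 and 55.4 RPKM in SI-ILC2s and 20.6 and 21.9 RPKM in WAT-ILC2s (log2 difference 1.27, limma adjusted p = 0.0011). Without SI-ILC2 replicate 2 the adjusted p of Lat was 0.053. The counts were 3 and 9 after median-of-ratios scaling, and 1 and 9 with libraries rescaled to equal sums.

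KIT binds stem cell factor and signals through GRB2, PI3-kinase, phospholipase C and STAT5. Of 15 tested genes of this list, 4 were higher in SI-ILC2s and 7 lower, or 5 and 2 after median-of-ratios scaling, and 3 and 8 with libraries rescaled to equal sums. Stat5a had 4.98 and 5.96 RPKM in SI-ILC2s and 2.63 and 2.74 RPKM in WAT-ILC2s, and Stat5b had 5.64 and 6.41 RPKM in SI-ILC2s and 2.66 and 3.46 RPKM in WAT-ILC2s. The regulatory PI3-kinase subunit gene Pik3r1 rose to 5.51 and 4.62 RPKM in SI-ILC2s, against 2.36 and 2.09 RPKM in WAT-ILC2s. The catalytic subunit gene Pik3cd fell to 3.14 and 2.82 RPKM in SI-ILC2s, against 8.33 and 7.91 RPKM in WAT-ILC2s. The ligand gene Kitl was below 1 RPKM in every library.

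Selectin binding by PSGL-1 involves fucose and sialic acid on its sugars and sulfate on its tyrosines, all added by enzymes. Of 14 tested genes of these enzymes and of selectins, 3 were higher in SI-ILC2s and 5 lower, with a median of -0.11 that became 0.07 after quantile normalization. Of the 14, 2 passed the filter through SI-ILC2s only and 3 through WAT-ILC2s only, Tpst1 and Sele among the 3. St3gal4, a sialyltransferase gene, had 2.42 and 2.05 RPKM in SI-ILC2s and 11.5 and 10.6 RPKM in WAT-ILC2s (log2 difference -1.90, limma adjusted p = 4.2e-04), and Tpst1, a tyrosine sulfotransferase gene, had 0.559 and 0.765 RPKM in SI-ILC2s and 2.36 and 3.21 RPKM in WAT-ILC2s. Gcnt1, whose product starts the branched glycans, had 19.6 and 20.4 RPKM in SI-ILC2s and 11.4 and 12.2 RPKM in WAT-ILC2s. The fucosyltransferase genes Fut4 and Fut7 were below 1 RPKM in every library. The selectin genes Selp and Sele, known from endothelium, had 0.330 and 1.02 RPKM and 0.0677 and 0.288 RPKM in SI-ILC2s, against 6.74 and 18.4 RPKM and 1.73 and 5.08 RPKM in WAT-ILC2s. Of 8 endothelial marker genes, whose summed level was 6.72 and 9.15 RPKM in SI-ILC2s and 10.5 and 25.4 RPKM in WAT-ILC2s, 2 were tested and went apart. Plvap, which made up much of the adipose sum, had 2.01 and 2.44 RPKM in SI-ILC2s and 5.17 and 16.2 RPKM in WAT-ILC2s, whereas Pecam1 had 3.88 and 4.49 RPKM in SI-ILC2s and 2.04 and 2.97 RPKM in WAT-ILC2s, a call that ended under 5 of 12 alternatives. Their part in the selectin values was not tested.

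CD69 acts on S1PR1, the receptor that draws lymphocytes toward sphingosine-1-phosphate in blood and lymph. Of 11 tested genes of this axis, 1 was higher in SI-ILC2s and 5 were lower, with a median of -0.62. The receptor genes S1pr1 and S1pr4 had 1.55 and 2.19 RPKM and 1.09 and 1.26 RPKM in SI-ILC2s, against 4.34 and 4.88 RPKM and 3.06 and 4.42 RPKM in WAT-ILC2s. Klf2, the transcription factor gene known to drive S1pr1 in T cells, was the gene that rose, to 25.7 and 24.2 RPKM in SI-ILC2s, against 8.70 and 6.80 RPKM in WAT-ILC2s. Adrbk1, the older symbol of Grk2, encodes a kinase that desensitises G protein-coupled receptors and had 18.9 and 25.7 RPKM in SI-ILC2s and 43.1 and 57.9 RPKM in WAT-ILC2s.

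The ligands and signalling partners of KLRG1, CD200R1 and CD7 gave 6 tested genes, of which 3 were lower in SI-ILC2s and none was higher. Dok2, the adaptor through which CD200R1 inhibits, had 11.1 and 11.2 RPKM in SI-ILC2s and 38.7 and 44.3 RPKM in WAT-ILC2s (log2 difference -1.80, limma adjusted p = 4.5e-04). Inpp5d, which encodes the inositol phosphatase SHIP-1 that inhibitory receptors recruit, had 5.35 and 4.83 RPKM in SI-ILC2s and 13.7 and 13.4 RPKM in WAT-ILC2s. Cd200r4, a paralog of Cd200r1 that shares 40 words of 50 bases with it, had 4.04 and 3.70 RPKM in SI-ILC2s and 10.4 and 8.31 RPKM in WAT-ILC2s. The cadherin ligand genes Cdh1, Cdh2 and Cdh4 were below 1 RPKM in every library. Of 18 further lectin genes of the NK gene complex on the chromosome that holds Klrg1 and Cd69, 17 stayed below 1 RPKM, and Klrb1b had 28.1 and 24.5 RPKM in SI-ILC2s and 6.21 and 4.09 RPKM in WAT-ILC2s (log2 difference 2.17, limma adjusted p = 6.7e-04).

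Among 7 tested partners of CD44, 1 was higher in SI-ILC2s and 2 were lower, or 1 and 1 after median-of-ratios scaling or quantile normalization and 1 and 3 with libraries rescaled to equal sums. Adam10, which encodes a protease that sheds CD44, was among the lower genes and lost its call under 6 of 13 alternatives. Srgn, the gene of the proteoglycan serglycin, had 258 and 224 RPKM in SI-ILC2s and 134 and 84.3 RPKM in WAT-ILC2s (limma adjusted p = 0.010, and 0.051 without SI-ILC2 replicate 1). Msn, whose product moesin ties CD44 to actin, had 17.9 and 18.1 RPKM in SI-ILC2s and 39.6 and 41.6 RPKM in WAT-ILC2s. The hyaluronan synthase genes Has1, Has2 and Has3 were below 1 RPKM in every library. Of the relatives of Ly6a, 4 were tested, with 1 higher in SI-ILC2s and 3 lower. Of the 3 lower genes, Ly6c1 and Ly6g5b passed the filter through WAT-ILC2s only, so their calls were in part set by it. The higher one was Plaur, whose call ended under 5 of 13 alternatives, rescaling to equal sums among them. The abundant one was Ly6e at 135 and 106 RPKM in SI-ILC2s, against 274 and 180 RPKM in WAT-ILC2s. Its adjusted p of 0.027 became 0.066 after median-of-ratios scaling (limma), and its call ended under 4 of 13 alternatives. Genes that build the GPI anchor of Thy1 and Ly6a were higher in SI-ILC2s for 3 of 20 tested and lower for 6, a share near that of all tested genes. Of the 6 lower genes, Piga, Pigh and Tmem8 passed the filter through WAT-ILC2s only. The counts were 3 and 4 after median-of-ratios scaling, 3 and 5 after quantile normalization, and 2 and 9 with libraries rescaled to equal sums. Pigc had 1.05 and 1.29 RPKM in SI-ILC2s, against 3.27 and 3.28 RPKM in WAT-ILC2s.

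**Figure D4:**
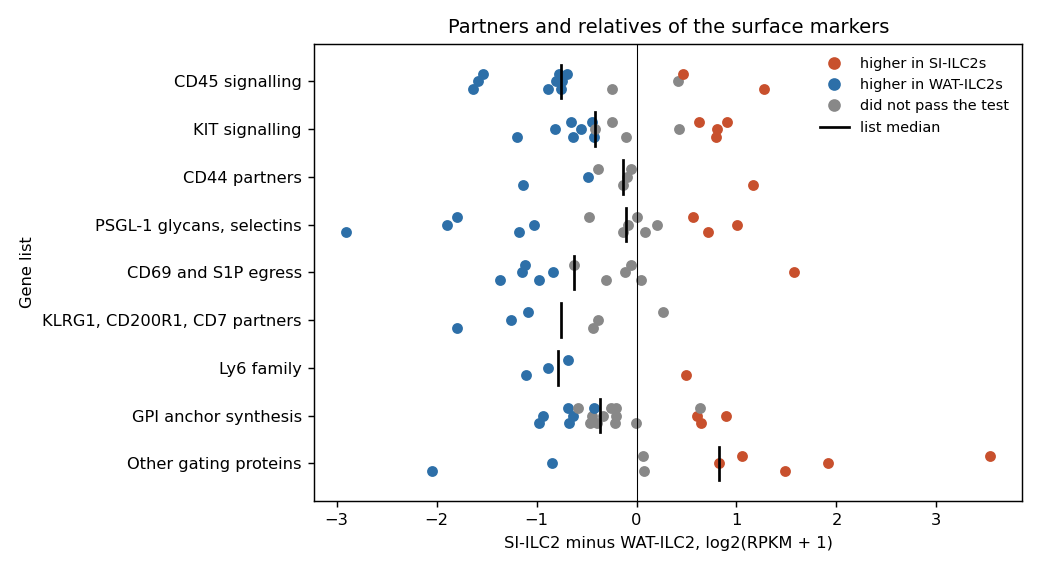
Difference between tissues (SI-ILC2 minus WAT-ILC2, log2(RPKM + 1)) of each tested gene in lists of partners and relatives of the surface markers, a point for each gene, red for genes higher in SI-ILC2s, blue for genes higher in WAT-ILC2s and grey for genes that did not pass the test; black bars are list medians. The CD45 list has 2 red and 9 blue points around a median of -0.75, and the list of other gating proteins has 5 red and 2 blue points around a median of 0.83. Over all tested genes, 17.9% were called toward SI-ILC2s and 29.6% toward WAT-ILC2s, with a median of -0.15.

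Several markers are shared with other cells, whose transcripts are given here as sums over whole lists, none of which held a gene at 0 in all libraries. For Kit, mast cell and basophil genes summed to 0.753 and 0.686 RPKM in SI-ILC2s and 3.29 and 1.91 RPKM in WAT-ILC2s. Of these 10 genes, 9 stayed below 1 RPKM in every library. Cpa3 had 0.171 and 0.211 RPKM against 1.26 and 1.11 RPKM and passed the filter through WAT-ILC2s only. ILC3 genes summed to 4.50 and 6.73 RPKM in SI-ILC2s and 2.73 and 3.46 RPKM in WAT-ILC2s. Each of their 3 tested genes passed the filter through 1 tissue only, Il22 and Il17f through SI-ILC2s and Nrp1 through WAT-ILC2s. Their opposite directions were in part set by that filter. Il22 had 1.76 and 3.50 RPKM in SI-ILC2s and 0.0649 and 0.0137 RPKM in WAT-ILC2s, and Il17f was also higher in SI-ILC2s. Nrp1 had 0.187 and 0.389 RPKM in SI-ILC2s and 1.76 and 2.51 RPKM in WAT-ILC2s, most of the adipose sum. For Thy1 and Ly6a, fibroblast and adipocyte progenitor genes summed to 1.24 and 1.58 RPKM in SI-ILC2s and 10.3 and 4.95 RPKM in WAT-ILC2s, with Dcn at 0.0609 and 0.0958 RPKM against 6.11 and 1.86 RPKM. T cell genes summed to 10.4 and 9.58 RPKM in SI-ILC2s and 26.9 and 16.9 RPKM in WAT-ILC2s, most of it Cd3g. For Cd69 and Cd7, NK cell and ILC1 genes summed to 8.35 and 8.26 RPKM in SI-ILC2s and 0.714 and 0.942 RPKM in WAT-ILC2s. Most of the sum in SI-ILC2s came from Gzmb. Prf1, which did not pass the filter, had 0.928 and 1.003 RPKM in SI-ILC2s and 0.272 and 0.445 RPKM in WAT-ILC2s. Ncr1 and Eomes were below 1 RPKM in every library. For Selplg, Ptprc and Cd44, macrophage and dendritic cell genes summed to 10.1 and 7.62 RPKM in SI-ILC2s and 18.9 and 18.5 RPKM in WAT-ILC2s, with Xcr1 at 5.11 and 4.47 RPKM against 9.92 and 7.40 RPKM. B and plasma cell genes summed to 24.9 and 18.9 RPKM in SI-ILC2s and 3.15 and 2.73 RPKM in WAT-ILC2s, led by Cd79b. Red cell genes summed to 41.5 and 13.2 RPKM in SI-ILC2s and 140 and 88.9 RPKM in WAT-ILC2s. Intestinal epithelial genes summed to 5.63 and 11.4 RPKM in SI-ILC2s, against 8.91 and 8.51 RPKM in WAT-ILC2s. Adipocyte genes summed to 0.796 and 0.445 RPKM in SI-ILC2s, against 5.25 and 4.80 RPKM in WAT-ILC2s. Neutrophil and eosinophil genes summed to 0.917 and 0.767 RPKM in SI-ILC2s, against 0.377 and 0.583 RPKM in WAT-ILC2s. The part of these cells in the marker differences was not tested.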

How the data were processed

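RNA was measured in 4 libraries, 2 of SI-ILC2s and 2 of WAT-ILC2s, grouped by sample title. The authors deposited RPKM values for 22083 genes, a column per library. The submitters' processing notes name STAR 2.6.0, featureCounts 1.6.0, Subread and GRCm38 (mm10). Annotation, strandedness and filtering: not given in the sources used here. Since RPKM is a normalized unit, count models were not applied. Depth came from single-exon genes, where 83.0% to 84.2% of low values lay within 0.1 of whole reads at the best depth, against 20% by chance. Reads per gene derived from it assume the exon lengths of GENCODE M21, and counting error only is covered.

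Genes with at least 1 RPKM in at least 2 libraries (8230) were compared on log2(RPKM + 1) with limma 3.58.1 in R 4.3.3, with a variance trend, no covariate, 6.39 degrees of freedom and Benjamini-Hochberg adjustment over all tested genes. The variance between replicates was at the median 15.4 (SI-ILC2s) and 18.6 times (WAT-ILC2s) that of counting noise, so no library was treated as a copy of another. The steps were tested on simulated data. Members and the 11 function and 13 cell marker lists were chosen with earlier results of these data known. Named genes were the members, up to 4 called genes per list and direction, lineage genes of at least 1 RPKM, the 2 most abundant genes of each marker list and the 3 nearest profiles, of which examples are given. Genes named as below 1 RPKM or as not called fall outside this rule and were chosen after their values were seen. Older symbols were used for Adgre1, Grk2 and Jchain. Positions and exon overlaps came from GENCODE M21 and promoters from RefSeq. Alternatives covered the pseudocount, filter, scaling, variance trend, replicate block and each library left out. Tables and figures were made in Python 3.11.15 with matplotlib 3.10.9, numpy 2.4.6 and pandas 2.3.3.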

Additional observations from a re-analysis of the deposited data

How the results depend on the processing

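Of 8 called markers, Cd69, Thy1, Ly6a and Selplg kept their call under all 13 alternatives. Cd7 kept it under the 12 that test it, but it entered the test through its SI-ILC2 values alone, so that count is no sign of stability. The calls of Cd44, Kit and Ptprc were lost as given with them. All 10 kept their direction. Leaving out a library gave 5 to 8 called markers, 2 to 4 of them higher in SI-ILC2s and 3 to 4 higher in WAT-ILC2s, and 2477 to 4146 called genes, 983 to 1595 higher in SI-ILC2s and 1492 to 2551 higher in WAT-ILC2s. The lowest total came without SI-ILC2 replicate 1; the lone library is assumed there to vary like the others. With a mean of at least 5 RPKM, which leaves 3584 genes to test, 1715 genes were called, 742 toward SI-ILC2s and 973 toward WAT-ILC2s. The called genes, 1470 and 2436 as given, were 1909 and 1868 after median-of-ratios scaling, 1772 and 1886 after quantile normalization and 1125 and 2891 after rescaling to equal sums.

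The labels do not say that a replicate number pairs libraries across tissues, although same-numbered libraries deviated together (r = 0.572 across 8230 genes, which are not independent). With the replicate block 10 markers were called, Klrg1 with an adjusted p of 0.0013 and Cd200r1 with 0.049, and 5701 genes, 2271 toward SI-ILC2s and 3430 toward WAT-ILC2s (limma). The lowest adjusted p-values in the ranges given for Cd44, Kit, Ptprc, Cd7 and Klrg1 came from that block. They do not describe the unpaired fit. Of 286 list counts under alternatives, 243 stayed within 1.5 times. Differences that did not pass the test and changed sign were those of Areg, at 0.12 after median-of-ratios scaling and -0.28 to 0.18 with a library left out, of Gata3, at 0.17 after median-of-ratios scaling and -0.12 to 0.11 with a library left out, and of Cd3e, at 0.0068 after quantile normalization. Where no cause is named, the cause was not tested. Depth limits Cd7, which rests on about 12 to 96 reads. Of the whole low values of single-exon genes, 65.1% to 71.5% were even, so the fragments behind these values may be fewer than the reads.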
